A study of Mus musculus with 9 samples.

Results

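The transcriptome described here is that of visual cortex microglia from adolescent mice that had received only saline as pups. Microglia are the resident macrophages of the brain. The 5 libraries titled Saline 1 to Saline 5, of 9 in the series, were taken by their titles, and the 4 libraries of ethanol-exposed mice are not used here. All 5 mice were C57BL/6 males that had been injected under the skin of the back with 0.9% sodium chloride, 2 times a day from postnatal day 4 to postnatal day 9, in the volume given to the ethanol group. No further injection followed. The mice were 36, 30, 35, 29 and 30 days old at collection (saline 1 to 5). Each library held the cells of both visual cortices of a single mouse, sorted as live cells (negative for propidium iodide) with CD11b and with low CD45, after perfusion and removal of myelin. The animals of the series came from 3 litters, and which litter a saline mouse belonged to is not stated in the labels. The baseline is therefore that of injected males, and any spread between mice also holds the spread of sorting and library preparation.

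Microglia enter the brain early in development and then maintain themselves by division. Their survival depends on the receptor CSF1R, which binds the growth factors CSF1 and IL34, and their identity is kept by TGF-beta signalling and by transcription factors such as PU.1, SALL1 and IRF8. In the healthy cortex they survey the tissue with motile processes guided by the nucleotide receptor P2RY12. They also remove cells and synaptic material through complement and other phagocytic receptors, and degrade this material in lysosomes. The labelled cell type was checked on 4 markers, Csf1r, P2ry12, Tmem119 and Cx3cr1, which were all among the 14 genes with the most counts.

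PU.1 (encoded by Spi1) binds DNA around a purine-rich core, and the letters GAGGAA stand for that core here. The windows shown are the promoters of 4 genes that were among the 8 most abundant per kilobase of exon, printed to show the sequence in front of the transcripts that dominate these libraries. They span 250 bases before to 50 bases after the start of the gene in RefSeq on GRCm38.p6, which can differ from the end of the GENCODE gene given with the levels, as it does for Cst3, C1qb and P2ry12. They read 5′ to 3′ along the gene. Capitals mark GAGGAA or its reverse complement TTCCTC. Cst3 lies on the minus strand of chr2:148875463-148875762, C1qb on the minus strand of chr4:136886151-136886450, Ctss on the plus strand of chr3:95526536-95526835 and P2ry12 on the minus strand of chr3:59262936-59263235.
Cst3: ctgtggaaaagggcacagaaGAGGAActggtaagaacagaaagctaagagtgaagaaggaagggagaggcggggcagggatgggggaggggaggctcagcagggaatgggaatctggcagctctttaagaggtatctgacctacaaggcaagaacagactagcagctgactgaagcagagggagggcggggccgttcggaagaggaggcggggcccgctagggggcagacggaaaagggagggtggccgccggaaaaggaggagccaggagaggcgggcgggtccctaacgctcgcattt
C1qb: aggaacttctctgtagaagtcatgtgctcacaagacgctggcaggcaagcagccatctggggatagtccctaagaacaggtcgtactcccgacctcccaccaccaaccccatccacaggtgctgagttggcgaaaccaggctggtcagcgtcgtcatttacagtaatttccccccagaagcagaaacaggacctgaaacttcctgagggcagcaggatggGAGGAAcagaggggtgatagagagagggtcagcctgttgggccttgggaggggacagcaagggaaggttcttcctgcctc
Ctss: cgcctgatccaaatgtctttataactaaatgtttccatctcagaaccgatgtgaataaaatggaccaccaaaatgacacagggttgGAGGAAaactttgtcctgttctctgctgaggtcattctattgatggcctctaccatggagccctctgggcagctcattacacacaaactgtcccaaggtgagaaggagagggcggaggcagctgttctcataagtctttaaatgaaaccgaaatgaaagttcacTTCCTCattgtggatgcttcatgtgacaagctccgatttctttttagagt
P2ry12: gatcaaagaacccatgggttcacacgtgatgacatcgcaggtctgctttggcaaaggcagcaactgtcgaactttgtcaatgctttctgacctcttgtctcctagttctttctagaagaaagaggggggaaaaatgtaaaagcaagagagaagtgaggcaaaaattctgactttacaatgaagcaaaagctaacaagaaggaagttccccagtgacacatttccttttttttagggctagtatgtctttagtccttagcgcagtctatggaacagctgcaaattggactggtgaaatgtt
The letters occurred 1 time in the Cst3 window, 1 time in that of C1qb, 2 times in that of Ctss and not in that of P2ry12. Of the 20 most abundant genes per kilobase, 15 had a promoter entry and 7 of these held the letters, against 9289 of all 32851 promoters (28.3%). A gene was counted once if any of its entries held the letters, while the share over all promoters counts each entry. A match of letters is a description of the sequence, not a binding site, and a window without a match says only that these letters are not in it. Spi1 itself, at chr2:91082390-91115756, stood at 376, 339, 315, 350.3 and 330.5 CPM in saline 1 to 5. Its levels lay close together in the 5 mice, and it held rank 414 of all symbols by mean CPM (counts scaled to a library total of 1000000).

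The libraries held 18476279, 28859244, 20156269, 18016777 and 20919085 counts (saline 1 to 5), from 8923 to 17832 sorted cells with RNA integrity numbers of 9 to 9.9. Levels are given as CPM on a scale common to the 5 libraries, as mean ± SD over the 5 mice. Longer transcripts collect more counts, so levels of different genes are compared as CPM per kilobase of exon (CPM per kb), while ranks and shares by CPM describe how the counts of a library were spread over genes. Between 16835 and 18896 symbols had a count in a library, 10831 of 45664 symbols (23.7%) were at 1 CPM or more in every mouse, and 23277 were listed at 0 in all 5. A count of 0 allows a level of up to 0.103 to 0.169 CPM in a single library (3 counts) and up to 0.0282 CPM over the 5 together, for counting error only. Between pairs of libraries, log levels across genes had correlations of 0.987 to 0.992 among saline 2 to 5 and of 0.982 to 0.987 between saline 1 and the others (genes are not independent replicates). Saline 1 thus stood somewhat apart, and results that rest on it are given with and without it. It also had the fewest sorted cells (8923), the fewest symbols with a count (16835) and a library-name suffix of its own. The part of these in its place was not tested. Mitochondrially encoded genes took 0.292% ± 0.0347 of the counts (SD, n = 5). mt-Cytb stood at 683 ± 74.9 CPM, while mt-Co3, mt-Atp6 and mt-Atp8 were listed at 0, so a 0 in this table need not mean that a transcript was missing (these 4 genes were picked with their values known).

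The counts were concentrated in few genes. A set of 66 genes held 25% of the counts of the average library, 569 held 50% and 4718 held 90%, and 94 genes reached 1000 CPM. The 3 genes with the most counts, Cst3, Csf1r and Ctsd, together took 5.84% ± 0.284 of all counts (SD, n = 5). The 20 with the most counts took 15.7% ± 0.639, with a range of 15.3% to 16.8% and the highest share in saline 1. None of these 20 fell below rank 23 in any library. The median level of the 10831 expressed genes was 31.7 CPM. Their median per kilobase was 7.35 CPM per kb, taken over the 10680 of them (98.6%) with an exon length.

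**Figure D1:**
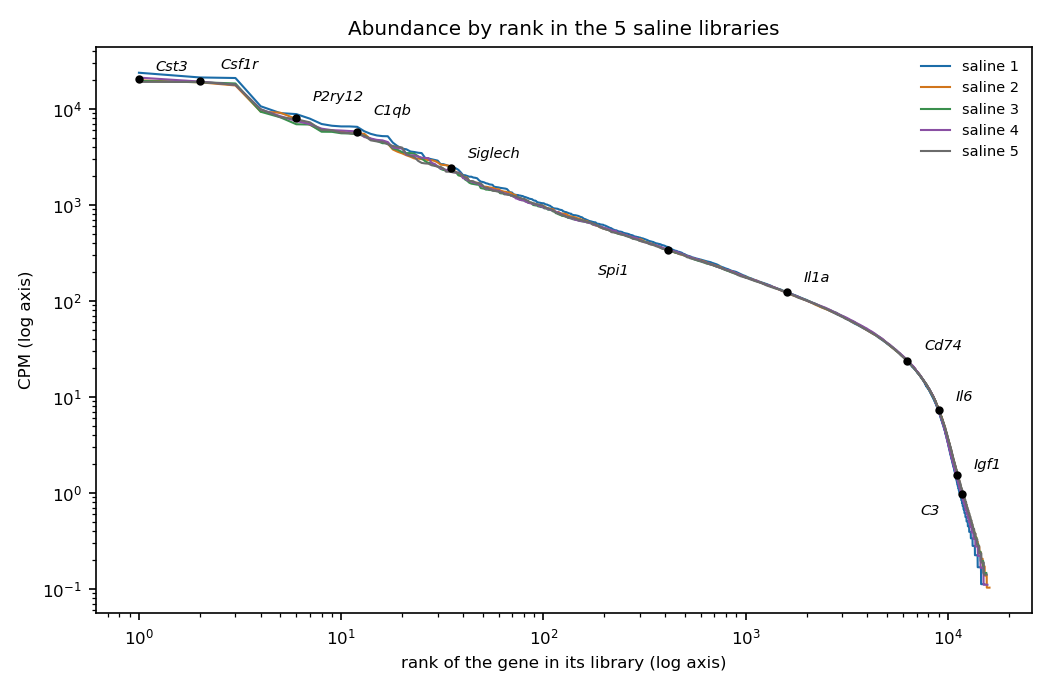
CPM of every gene (vertical log axis) against its rank in its own library (horizontal log axis), 1 line for each of the 5 saline mice, with 11 genes marked at their mean level and rank. The 5 lines lie on each other over most of the range, from Cst3 at 20356 CPM to C3 at 0.982 CPM, and saline 1 runs slightly above the rest at the top.

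Transcripts of other cells were scarce beside those of microglia, and their levels differed between libraries. The 4 microglial markers summed to 37842 to 43263 CPM. The 15 neuronal markers summed to 7.59 CPM in saline 1 and to 166 to 303 CPM in saline 2 to 5. The 13 astrocyte markers summed to 7.19 CPM in saline 1 and to 94.0 to 240 CPM in the others. Kif5a, a kinesin gene of neurons, gave most of the neuronal sum, with 1.46, 118, 139, 107 and 216 CPM in saline 1 to 5. In saline 1, 5 of the 15 neuronal markers, Map2 among them, and 5 of the 13 astrocyte markers, Gja1 among them, had no count, while none of these markers was at 0 in all 5 libraries. In both lists saline 1 was far below the other 4 mice and saline 5 was the highest.

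Most other marker sums rested on a single gene that the defining markers of the same cell type did not accompany. The 14 lymphocyte markers summed to 45.2 to 53.2 CPM, nearly all of it from Cd79b, part of the B-cell receptor complex, at 48.3 ± 3.26 CPM, while Cd3e, Cd3g and Cd2 were listed at 0 in all 5 libraries. The 12 markers of endothelial cells and pericytes summed to 61.9 to 73.1 CPM, of which Pecam1, an adhesion molecule of vessels and leukocytes, gave 65.6 ± 4.84 CPM, while the tight-junction gene Cldn5 had 1 count in saline 2 and none in the other libraries. The 10 border macrophage markers summed to 52.0 to 86.5 CPM, mostly from the mannose receptor gene Mrc1 (62.2 ± 10.9 CPM), with Cd163 at 0.276 to 1.72 CPM over the 5 mice and Lyve1 at 4, 4, 3, 24 and 3 counts in saline 1 to 5. The 12 monocyte and neutrophil markers summed to 4.90 to 8.62 CPM, with 1 count of Ly6c2 in saline 3 and none in the others, and S100a8 listed at 0. The 6 erythroid markers stayed below 1 CPM in sum. Oligodendrocyte markers summed to 199 to 262 CPM, mostly from Cnp (97.9 ± 8.70 CPM), Mbp (82.7 ± 21.01 CPM) and Mag (26.2 ± 1.59 CPM), with the myelin gene Mog at 7, 5, 1, 8 and 6 counts in saline 1 to 5. Mobp, of the same list, averaged 10 CPM or more. It was lowest in saline 1 and highest in saline 5, as the neuronal and astrocyte sums were. In bulk libraries such as these, fewer cells of a type and less RNA per cell cannot be told apart.

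**Figure D2:**
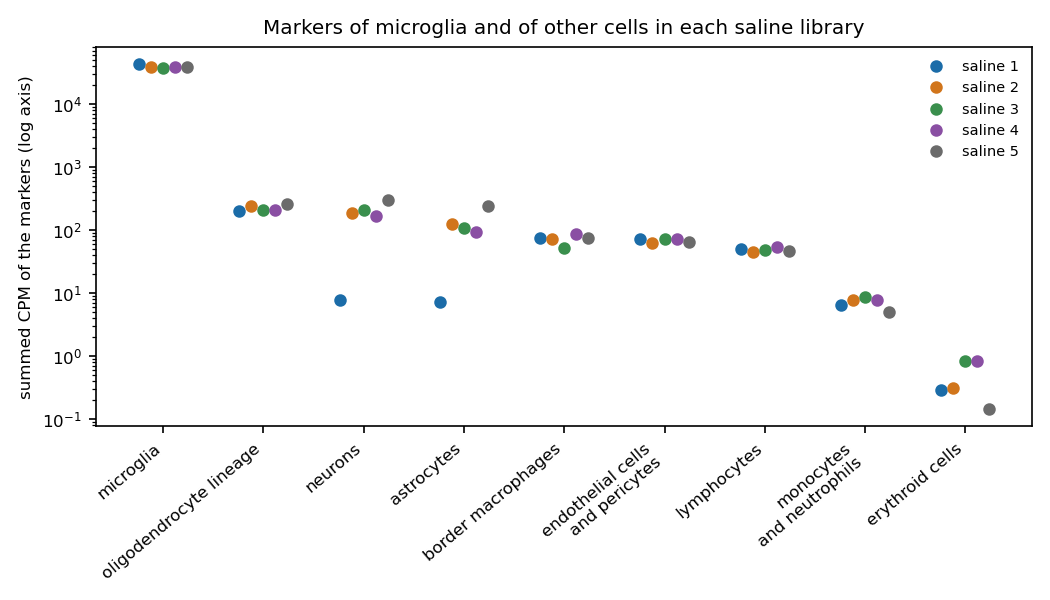
Summed CPM of the markers of 9 cell types (vertical log axis) in each of the 5 saline libraries, 1 point per mouse. Microglial markers lie between 37842 and 43263 CPM, and the neuronal and astrocyte sums set saline 1 apart, at 7.59 and 7.19 CPM against 94.0 CPM or more in the other 4. The erythroid sums, all below 1 CPM, were 0.832 and 0.830 CPM in saline 3 and 4 against 0.141 to 0.310 CPM in the others.

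The gene with the most counts was Cst3, which encodes the secreted protease inhibitor cystatin C and lies at chr2:148871722-148875692 on GRCm38. It stood at 23704, 19764, 19464, 21097 and 17752 CPM in saline 1 to 5, ranked between 1 and 3 in the 5 libraries and reached 16079 ± 1752 CPM per kb. Ctsd (chr7:142375911-142388038), which encodes the lysosomal protease cathepsin D, stood at 21176, 17474, 18333, 17745 and 19036 CPM, or 7976 ± 630.1 CPM per kb. Csf1r stood at 20891, 18854, 18881, 19195 and 19034 CPM, or 3355 ± 149 CPM per kb. Saline 1 was the highest of the 5 mice for all 3 genes, and saline 2 to 5 lay closer to each other than to saline 1 for Csf1r and Ctsd.

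Per kilobase, the next places were held by complement, lysosomal and surface genes. C1qb followed with 5289 ± 467 CPM per kb and Ctss, which encodes cathepsin S, with 4281 ± 291 CPM per kb. P2ry12 reached 3160 ± 381 CPM per kb, and the complement genes C1qa and C1qc reached 3069 ± 261 CPM per kb and 2398 ± 192 CPM per kb. Further places among the 20 went to Itm2b, Tmem119, Serinc3, Fcrls, Tmsb4x, B2m, Lgmn, Laptm5, Cx3cr1, Selplg and Psap, from 2185 CPM per kb for Itm2b to 1335 CPM per kb for Psap. Of the 20 highest genes per kilobase, 17 were also among the 20 highest by CPM. The exceptions were C1qa, Tmsb4x, which encodes the actin-binding peptide thymosin beta 4, and B2m, which encodes the light chain of MHC class I. Exons of 7 of the 20 highest genes by CPM overlap those of another gene in GENCODE M21, P2ry12 with Med12l among them. Whether the counting used strand is not stated in the labels, so reads of such pairs may not be fully separated.

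All 19 genes of the homeostatic list, genes known to mark microglia of the healthy brain, averaged 100 CPM or more, and 14 of them at 1000 CPM or more. The list was chosen for such genes, so that its place far above the 23.7% of symbols expressed overall is a description. Together they took 8.30% of the counts, with sums of 91212, 82605, 78942, 81417 and 80889 CPM in saline 1 to 5. Saline 1 was the highest, and saline 2 to 5 lay close together. P2ry12 (chr3:59216272-59262871), the receptor for extracellular ADP that guides process movement, stood at 9010.3, 9091, 6896, 7448 and 7780.2 CPM in saline 1 to 5. It was higher in saline 1 and 2 than in saline 3, 4 and 5, with a ratio of 1.32 between the highest and the lowest mouse. Tmem119 (chr5:113793729-113800516), which encodes a membrane protein used to tell microglia from other macrophages, stood at 5475, 4578, 5217, 5078 and 4690.1 CPM. Cx3cr1 (chr9:119901616-120069879), the receptor for the neuronal ligand fractalkine, stood at 7887, 6813, 6849, 6916 and 7223 CPM. Saline 1 was the highest for both, and the other 4 mice differed among themselves by less than 1.5 times.

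Surface and secreted genes of the same list followed. Fcrls, an Fc receptor-like gene of rodent microglia, stood at 1999.7 ± 152 CPM per kb and Selplg, the ligand of selectins, at 1385 ± 99.2 CPM per kb. Sparc, a matrix-binding secreted protein, stood at 1258 ± 82.01 CPM per kb and the lysophosphatidylserine receptor gene Gpr34 at 1232 ± 112 CPM per kb. Siglech, a sialic acid-binding lectin gene, stood at 707 ± 48.6 CPM per kb. The lowest members per kilobase were Sall1 at 159 ± 16.6 CPM per kb and Ltc4s, which encodes leukotriene C4 synthase, at 114 ± 9.53 CPM per kb. The list thus spanned a wide range, although even its lowest member was far above the median expressed gene at 7.35 CPM per kb.

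Of 29 transcription factors of microglia and other macrophages, 24 were at 1 CPM or more in every mouse, and none reached 1000 CPM. Sall1, which in the brain marks microglia among macrophages, reached 159 ± 16.6 CPM per kb, with 933, 915, 765, 737 and 833 CPM in saline 1 to 5. Irf8, an interferon regulatory factor needed for microglia, stood at 671, 615, 550, 566 and 562 CPM. Sall1 and Irf8 were both highest in saline 1 and 2, with both genes varying by less than 1.5 times between the highest and the lowest mouse. Fli1 and Mef2a, of the ETS and MEF2 families, stood at 66.8 ± 8.37 CPM per kb and 57.1 ± 8.06 CPM per kb. Factors that define other macrophages were at the bottom of the list. Gata6, the factor of peritoneal macrophages, was listed at 0 in all 5 libraries, and Pparg, that of alveolar macrophages, stood at 0.0344 to 0.734 CPM.

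Per kilobase, the receptors that maintain microglia were more abundant than their ligands. In the family of colony-stimulating factors, Csf1r was followed by Csf3r, the receptor for granulocyte colony-stimulating factor, at 214 ± 16.2 CPM per kb, with 841, 814, 764, 692 and 749 CPM in saline 1 to 5. The 3 GM-CSF receptor genes Csf2ra, Csf2rb and Csf2rb2 stood at 22.1 ± 4.46 CPM per kb, 25.1 ± 1.70 CPM per kb and 17.5 ± 1.60 CPM per kb, of which Csf2rb and Csf2rb2 are close copies that share sequence. The ligand gene Csf1 stood at 71.4, 40.3, 37.3, 36.7 and 58.9 CPM, highest in saline 1 and 5. Il34, the other ligand of CSF1R, had 5 counts in saline 4, 2 in saline 5 and none in the other libraries, and Csf2 and Csf3 were listed at 0.

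The TGF-beta receptors were both abundant. Tgfbr1 (chr4:47353222-47414931) stood at 3033, 2861, 3453, 3276 and 3385 CPM in saline 1 to 5, or 490 ± 38.02 CPM per kb, and Tgfbr2 (chr9:116084293-116175360) at 1541, 1333, 1139, 1068 and 1338 CPM, or 157 ± 22.8 CPM per kb. Tgfbr1 was highest in saline 3 and Tgfbr2 in saline 1. The cells also expressed the ligand gene Tgfb1 at 53.5 ± 2.73 CPM per kb and Nrros, which encodes the protein that tethers latent TGF-beta on microglia, at 80.8 ± 15.7 CPM per kb. Tgfb2, Tgfb3, Tgfbr3 and Itgb8 averaged less than 1 CPM.

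Of 21 genes of purinergic and adenosine signalling, 9 were at 1 CPM or more in every mouse. After P2ry12, the highest per kilobase was P2ry13, another ADP receptor, at 1085 ± 223 CPM per kb. It stood at 3453, 3165, 2224, 2177 and 2696 CPM in saline 1 to 5, with saline 1 and 2 above the other 3 mice as for P2ry12. Entpd1, which encodes the ATP-degrading enzyme CD39, stood at 213 ± 31.8 CPM per kb. P2ry6, the UDP receptor linked to phagocytosis, stood at 149.8 ± 20.6 CPM per kb. The ATP-gated channel genes P2rx7, P2rx4 and P2rx1 stood at 68.4 ± 3.16 CPM per kb, 16.2 ± 0.642 CPM per kb and 13.2 ± 1.04 CPM per kb, and the adenosine receptor gene Adora3 at 15.6 ± 1.33 CPM per kb. P2rx7 and P2rx4 were among the evenest members, with CVs (coefficients of variation, the SD divided by the mean) of 0.0462 and 0.0396. Nt5e, which encodes CD73, the enzyme that turns AMP into adenosine, stood at 5, 6, 3, 1 and 0 counts. Adora2a had 7 counts in saline 3 and none elsewhere, and P2ry1 was listed at 0.

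Of 36 receptors for neurotransmitters, 7 (19.4%) were at 1 CPM or more in every mouse, a share near the 23.7% of all symbols. Adrb1, an adrenergic receptor gene, stood at 14.8 ± 5.47 CPM per kb, with 38.99, 41.02, 82.8, 40.7 and 47.5 CPM in saline 1 to 5, so that saline 3 stood above the other 4 mice. The cannabinoid receptor gene Cnr2 stood at 10.5 ± 1.13 CPM per kb, the GABA-B receptor subunit gene Gabbr1 at 4.62 ± 1.00 CPM per kb and the histamine receptor gene Hrh2 at 3.93 ± 0.994 CPM per kb. Gabbr2, which encodes the partner subunit of GABBR1, stood at 0, 0.827, 2.50, 1.22 and 1.60 CPM. The dopamine receptor genes Drd2 and Drd5, the serotonin receptor gene Htr2a and the nicotinic receptor gene Chrna7 were listed at 0.

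Of 23 ion channel genes, 20 were at 1 CPM or more in every mouse. Clic1, a chloride channel gene, led with 190.1 ± 14.9 CPM per kb. The background potassium channel genes Kcnk6, Kcnk13 and Kcnk12 stood at 132 ± 31.1 CPM per kb, 44.9 ± 7.49 CPM per kb and 26.2 ± 3.23 CPM per kb. The calcium entry channel gene Orai1 stood at 75.04 ± 12.6 CPM per kb and the proton channel gene Hvcn1 at 39.04 ± 3.47 CPM per kb. Kcnk13 encodes the channel THIK-1, which holds the resting potential and aids surveillance. Kcnj2, an inward rectifier gene, stood at 8.79 ± 2.87 CPM per kb, and Kcna3, the voltage-gated channel gene linked to activated microglia, at 1.68 ± 0.380 CPM per kb.

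Of 21 complement genes, 14 were at 1 CPM or more in every mouse, and their levels differed by role. The 3 genes of C1q, the recognition unit of the classical pathway, were among the 10 highest transcripts per kilobase, and C1qb (chr4:136880129-136886187) stood at 6547, 5504, 5555, 5932 and 5236 CPM in saline 1 to 5. C3, the central component, stood at 0.169, 0.792, 0.881, 2.88 and 0.188 CPM, from 3, 23, 18, 52 and 4 counts. C3 was thus near the floor of detection in saline 1 and 5 and highest in saline 4. C1ra and C4b of the classical pathway stood at 3.20 CPM and 3.76 CPM, while C2 stood at 8, 0, 4, 5 and 3 counts and Cfb at 0, 2, 2, 1 and 1 counts.

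Receptors for complement fragments were present at higher levels. Itgam and Itgb2, which encode the 2 chains of complement receptor 3 (CD11b and CD18), stood at 478 ± 23.3 CPM per kb and 232 ± 18.6 CPM per kb; CD11b was a sorting marker. C3ar1, the receptor for C3a, stood at 109 ± 15.05 CPM per kb, and the C5a receptor genes C5ar1 and C5ar2 at 60.3 ± 13.5 CPM per kb and 27.9 ± 5.73 CPM per kb. Among the regulators, Cr1l, which encodes the rodent regulator Crry, stood at 10.9 ± 0.371 CPM per kb. Cd46 stood at 2.82 CPM, and Cd55 was listed at 0.

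Phagocytic receptors formed another abundant group, with 20 of 24 genes at 1 CPM or more in every mouse and 8 at 1000 CPM or more. Gpr34, Tyrobp, Sirpa, the integrin gene Itgb5 and the endosomal glycoprotein gene Cd68 were the highest per kilobase, from 1232 CPM per kb for Gpr34 to 894 CPM per kb for Cd68. Trem2, a lipid receptor gene, stood at 1246, 1285, 1065, 1114 and 1057 CPM in saline 1 to 5, and Tyrobp, which encodes its signalling partner DAP12, at 748, 714, 729, 833 and 695 CPM. Per kilobase Trem2 reached 233 ± 21.4 CPM per kb and Tyrobp 1115 ± 80.3 CPM per kb. The TAM receptors, which bind phosphatidylserine on dying cells through bridging ligands, were unequal. Mertk stood at 284 ± 7.69 CPM per kb, Axl at 5.22 ± 1.05 CPM per kb and Tyro3 at 0.119 ± 0.109 CPM per kb, from 1, 43, 25, 0 and 20 counts. Mertk was also the evenest of the 3, with 1233, 1194, 1277, 1248 and 1205 CPM in saline 1 to 5. The bridging ligand genes Pros1 and Gas6 stood at 231 ± 14.2 CPM per kb and 125 ± 8.61 CPM per kb. Sirpa, the receptor for the signal CD47 that restrains uptake, stood at 1073 ± 97.3 CPM per kb and Cd47 itself at 38.5 ± 0.956 CPM per kb. Timd4, a phosphatidylserine receptor gene of other tissue macrophages, was listed at 0.

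All 20 Fc and inhibitory receptors were at 1 CPM or more in every mouse. Fcer1g, the common signalling chain, stood at 845 ± 57.4 CPM per kb. Fcgr3, an activating IgG receptor, stood at 752 ± 78.8 CPM per kb, Fcgr1 at 98.9 ± 9.37 CPM per kb, the inhibitory Fcgr2b at 63.1 ± 5.49 CPM per kb and Fcgr4 at 7.29 ± 0.933 CPM per kb. These receptors share sequence, so the split of counts between them is uncertain. Cd33 and Siglece, inhibitory lectin genes, stood at 80.3 ± 3.08 CPM per kb and 73.2 ± 11.4 CPM per kb.

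Of 24 Toll-like receptors and adaptors, 22 were at 1 CPM or more in every mouse. Unc93b1, which carries nucleic acid-sensing receptors to endosomes, was the highest at 731 ± 32.6 CPM per kb, followed by Ly86, which encodes the MD-1 partner of RP105, at 234 ± 27.98 CPM per kb. Among the receptors themselves Tlr7 and Tlr13, which sense microbial RNA, came first. Tlr7 stood at 456, 452, 601, 557 and 433 CPM in saline 1 to 5 and Tlr13 at 543, 448, 412, 368 and 467 CPM, or 122 ± 18.3 CPM per kb and 104 ± 15.2 CPM per kb. Tlr7 was highest in saline 3 and 4 and Tlr13 in saline 1. Tlr2 and Tlr4, sensors of bacterial lipoproteins and lipopolysaccharide, stood at 78.6 ± 6.68 CPM per kb and 44.4 ± 4.04 CPM per kb, beside their co-receptor gene Cd14 at 226 ± 21.6 CPM per kb. Tlr9, a sensor of DNA, stood at 1.84 ± 0.485 CPM per kb, and Tlr8 at 0.0370 ± 0.0416 CPM per kb, from 0, 10, 2, 4 and 0 counts.

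Chemokine receptors were dominated by Cx3cr1. Of 21 genes, 10 (47.6%) were at 1 CPM or more in every mouse. Ccr1, a receptor for inflammatory chemokines, stood at 100.1, 112, 67.6, 136 and 71.7 CPM in saline 1 to 5 and varied by 2.01 times between saline 3 and saline 4. Ccr2, a receptor of blood monocytes, stood at 0.819 ± 0.186 CPM per kb, and Cxcr4 at 0.0800 ± 0.0583 CPM per kb, from 0, 2, 5, 4 and 4 counts.

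Of 23 chemokine ligand genes, 10 (43.5%) were at 1 CPM or more in every mouse, led by Ccl6 and Ccl9 at 92.5 ± 13.5 CPM per kb and 71.2 ± 8.06 CPM per kb. Both lie close together on chromosome 11, at chr11:83587882-83593087 and chr11:83572919-83578636. Ccl12, Ccl4 and Ccl3 stood at 60.9 ± 10.8 CPM per kb, 42.8 ± 12.6 CPM per kb and 27.8 ± 6.67 CPM per kb. The inflammatory ligand genes Ccl2 and Cxcl10 were at 2.99 to 7.81 CPM and 1.17 to 5.82 CPM over the 5 mice. Ccl17, Cxcl1 and Cxcl13 were listed at 0.

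Among 23 cytokine genes, 13 were at 1 CPM or more in every mouse. The 2 forms of interleukin 1 were far apart. Il1a stood at 138, 145, 95.4, 112 and 121 CPM in saline 1 to 5, or 61.95 ± 10.03 CPM per kb, and Il1b at 4.78, 2.89, 2.20, 1.72 and 5.27 CPM, or 1.77 ± 0.826 CPM per kb. Il1a was above the median expressed gene per kilobase, 7.35 CPM per kb, in every mouse, and Il1b was below it in every mouse. Il16 and Il18 stood at 32.5 ± 3.95 CPM per kb and 25.4 ± 2.10 CPM per kb. Il6 stood at 5.89 to 7.87 CPM and Tnf at 1.13 to 2.64 CPM over the 5 mice. Il10, Il12a and Ifng were listed at 0, and Il12b had 10 counts in saline 5 and none in the other libraries.

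Growth factors were low with few exceptions, and 9 of 22 were at 1 CPM or more in every mouse. Grn, which encodes the lysosomal and secreted protein progranulin, stood at 915 ± 68.9 CPM per kb, with 3543, 2909, 3037, 3172 and 3239 CPM in saline 1 to 5. Pdgfb stood at 29.1 ± 7.47 CPM per kb and Vegfb at 16.9 ± 2.12 CPM per kb. Igf1, which microglia of the developing white matter produce, stood at 0.955, 1.41, 1.08, 2.16 and 2.02 CPM, from 17, 41, 22, 39 and 43 counts. Bdnf had 1 count in each of saline 1 and 2 and none in the other 3, and Igf2, Ntf3, Gdnf, Bmp4 and Bmp6 were listed at 0.

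Antigen presentation by MHC class I and class II differed in level. All 15 class I genes were at 1 CPM or more in every mouse. B2m stood at 1882 ± 126 CPM per kb, and the heavy chain genes H2-D1 and H2-K1 at 236 ± 31.8 CPM per kb and 117 ± 12.9 CPM per kb; the heavy chains share sequence, so the split between them is uncertain. Of 13 class II genes, 9 passed that level. The peptide-loading genes H2-DMa and H2-DMb1 stood at 60.00 ± 7.32 CPM per kb and 53.96 ± 4.65 CPM per kb, and the costimulatory gene Cd86 at 133 ± 5.25 CPM per kb. The class II chains themselves were low. H2-Ab1 stood at 11.2, 7.16, 9.15, 10.02 and 11.3 CPM in saline 1 to 5, H2-Aa at 0.562, 0.482, 0.490, 0.997 and 1.55 CPM and H2-Eb1 at 0.393, 0.344, 0.392, 1.16 and 0.800 CPM. Cd74, which encodes the invariant chain, stood at 14.1 ± 1.96 CPM per kb, and Ciita, the master regulator of class II genes, at 13, 26, 0, 5 and 10 counts.

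Of 22 genes of the type I interferon response, 21 were at 1 CPM or more in every mouse, but only 2 exceeded 100 CPM, and both were receptor chains. Ifnar2 and Ifnar1 stood at 65.4 ± 6.76 CPM per kb and 31.8 ± 1.76 CPM per kb. Of the genes that interferon induces, Bst2, which encodes the virus-retaining protein tetherin, was the highest at 54.4 ± 2.59 CPM per kb. Isg15, Ifit3 and Irf7 stood at 3.80 ± 0.914 CPM per kb, 4.86 ± 1.05 CPM per kb and 2.42 ± 0.547 CPM per kb, below the median expressed gene. Ifit3 ranged over 6.02 to 11.2 CPM and was highest in saline 5.

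The disease-associated list holds genes of the signature that microglia take on around plaques and in degeneration. Of 21, 20 were at 1 CPM or more in every mouse, and the list includes lysosomal genes such as Ctsd and Ctsb that are among the 20 highest by CPM. Apoe stood at 675, 608, 569, 821 and 1029 CPM in saline 1 to 5, or 346 ± 87.9 CPM per kb, highest in saline 5, whose astrocyte and neuronal marker sums were also the highest. Apoe is also a gene of astrocytes, and their part in its level was not tested. Cd9 stood at 349 ± 49.9 CPM per kb, with saline 1 at 895 CPM and the other 4 mice at 654 to 681 CPM. Cst7, Clec7a and Itgax stood at 11.8 ± 2.50 CPM per kb, 7.79 ± 0.892 CPM per kb and 2.96 ± 0.674 CPM per kb. Spp1 and Lgals3 stood at 1.65 ± 0.538 CPM per kb and 1.15 ± 0.215 CPM per kb, and Gpnmb had 3 counts over all 5 libraries.

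The 17 cathepsins and cystatins took 5.91% of all counts and the 22 other lysosomal genes 3.29%. After Cst3, Ctsd and Ctss, the highest of the first list were Lgmn, which encodes legumain, at 1659 ± 88.6 CPM per kb, Ctsz at 979 ± 133 CPM per kb and Ctsb at 663 ± 44.2 CPM per kb. Ctsk, Ctse and Ctsg, cathepsins of osteoclasts and other blood cells, averaged less than 1 CPM. In the second list, Laptm5 stood at 1628 ± 121 CPM per kb and Psap, which encodes the precursor of the saposins, at 1335 ± 142 CPM per kb. Psap stood at 3851, 3036, 3542, 3946 and 3946 CPM in saline 1 to 5, lowest in saline 2. The exception was Atp6v0d2, a proton pump subunit of osteoclasts, at 0, 0, 0, 6 and 9 counts.

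The subunits of the phagocyte NADPH oxidase were unequal. Cyba, which encodes the small membrane subunit, stood at 353, 284, 305, 330 and 289.5 CPM in saline 1 to 5, or 301 ± 27.9 CPM per kb, and the cytosolic subunit genes Ncf1 and Ncf4 at 138 ± 13.99 CPM per kb and 34.9 ± 2.08 CPM per kb. Cybb, which encodes the catalytic subunit, stood at 0.787, 3.79, 2.79, 3.82 and 3.01 CPM, or 0.489 ± 0.213 CPM per kb. Cybb was lowest in saline 1, where it had 14 counts. Of the iron genes on the same list, the ferritin chain genes Ftl1 and Fth1 stood at 305 ± 26.7 CPM per kb and 221 ± 19.5 CPM per kb and the iron exporter gene Slc40a1 at 58.7 ± 4.50 CPM per kb. Ferritin genes have close copies, so their levels are uncertain.

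Of 16 transporters of sugars and amino acids, 13 were at 1 CPM or more in every mouse, as were 17 of 21 genes of lipid handling. Slc2a5, a fructose transporter gene typical of microglia, stood at 1176, 1012, 962, 921 and 894 CPM in saline 1 to 5, or 292 ± 32.8 CPM per kb, against 20.5 ± 2.14 CPM per kb for the glucose transporter gene Slc2a1 and 1.19 ± 0.351 CPM per kb for Slc2a3. Slc2a5 was highest in saline 1. Slc7a8, an amino acid transporter gene, stood at 220.2 ± 22.3 CPM per kb, and Slc29a3, a lysosomal nucleoside transporter gene, at 193 ± 17.4 CPM per kb. Slc1a3, a glutamate transporter gene known from astrocytes, stood at 268, 239.8, 305, 260.4 and 303 CPM, lowest in saline 2 and highest in saline 3. The part of astrocytes in its level was not tested. In lipid handling, Lpcat2, a phospholipid-remodelling enzyme gene, stood at 574 ± 39.8 CPM per kb and the cholesterol exporter gene Abca1 at 100.2 ± 11.9 CPM per kb.

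Of 25 genes of actin, movement and adhesion, 22 averaged 100 CPM or more. Tmsb4x and Actb stood at 1895 ± 234 CPM per kb and 918 ± 129 CPM per kb. Vav1, Arpc2, Rac2 and Rac1, which act on the actin cytoskeleton, had CVs of 0.0322, 0.0327, 0.0323 and 0.0435.

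Of 18 metalloproteinases and inhibitors, 8 were at 1 CPM or more in every mouse. Timp2, an inhibitor, was the highest and stood at 259 ± 15.6 CPM per kb, with 1094, 961, 947, 1002 and 1046 CPM in saline 1 to 5, and Timp1 was listed at 0. The membrane sheddase genes Adam10 and Adam17 stood at 146 ± 6.40 CPM per kb and 75.7 ± 5.88 CPM per kb. Mmp2 stood at 19.9 ± 2.55 CPM per kb, and Mmp9 had 20 counts in saline 5 and none elsewhere.

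Cell cycle genes were low, with no member of 21 at 100 CPM. The replication licensing gene Mcm3 stood at 19.1 ± 1.56 CPM per kb and the D-type cyclin gene Ccnd1 at 6.69 ± 4.03 CPM per kb. Mki67, a marker of dividing cells, had 2 counts in saline 1 and none in the other 4 libraries, and Top2a stood at 0, 11, 2, 6 and 4 counts.

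**Figure D3:**
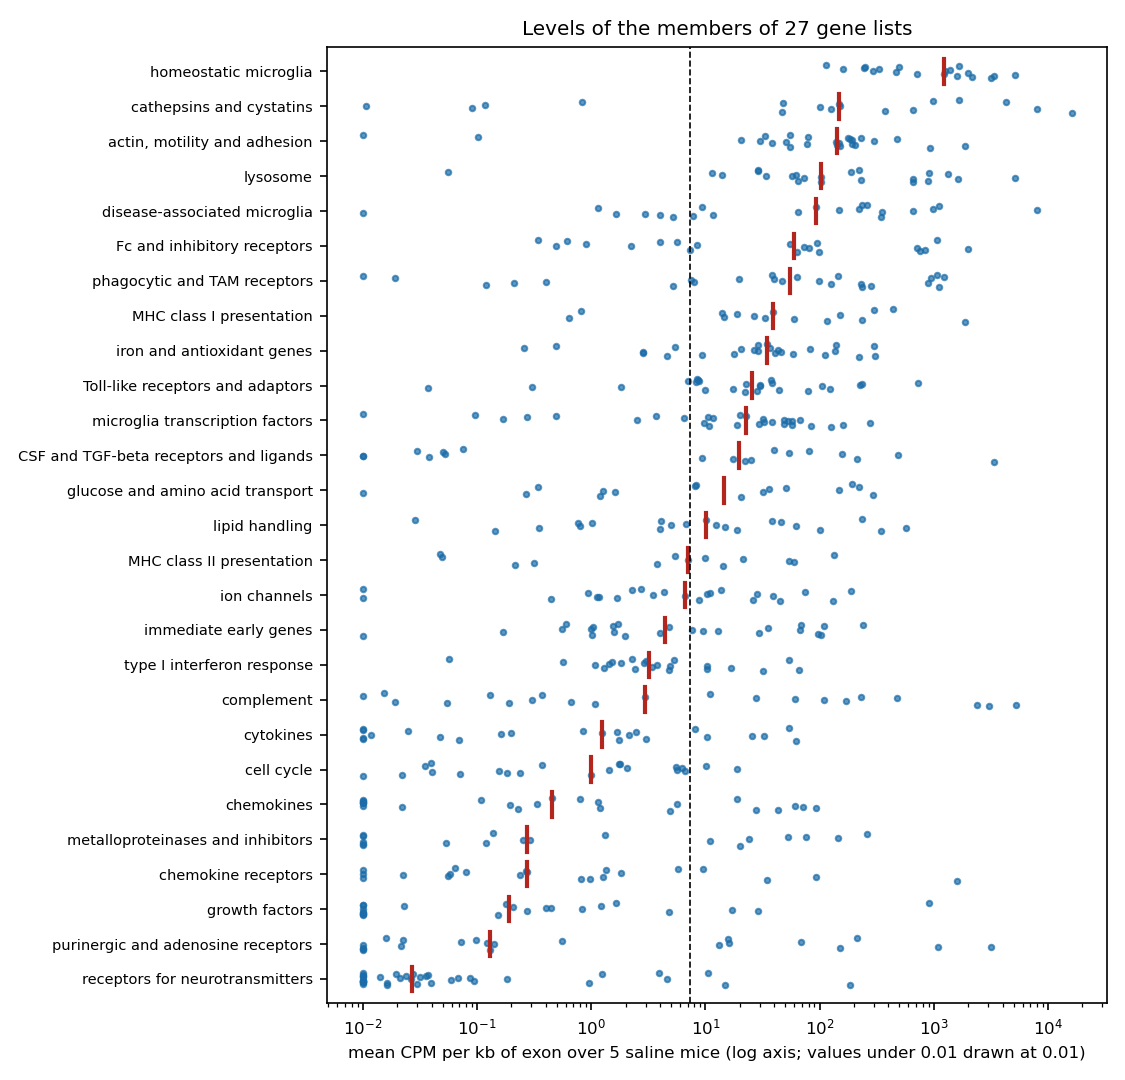
Mean CPM per kb over the 5 saline mice (horizontal log axis) of every member of 27 gene lists, 1 point per gene, with the median of each list as a red bar and that of all expressed genes, 7.35 CPM per kb, as a dashed line. The homeostatic list has the highest median, 1232 CPM per kb, and the neurotransmitter receptors the lowest, 0.0270 CPM per kb.

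Spread between the mice was small for most genes. Over the 8478 genes with a mean of 10 CPM or more, the median CV was 0.0965, and it was 0.0873 without saline 1. For 4503 of these genes (53.1%) the CV was under 0.1. The common biological coefficient of variation, the spread beyond counting error estimated by edgeR over 11571 genes, was 0.145. The spread fell with level. The median CV was 0.256 at 1 to 10 CPM, 0.103 at 10 to 100 CPM, 0.0762 at 100 to 1000 CPM and 0.0698 above 1000 CPM. Counting error alone would give medians of 0.121, 0.0380, 0.0170 and 0.00541 in the same bins.

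Among the functional lists, the immediate early genes had the largest median CV of the lists with 10 or more expressed members, 0.246 over 18 genes. The median level of the list was 12.9 CPM, and all genes at 10 to 100 CPM had a median CV of 0.103. Immediate early genes are known to be switched on within minutes of a stimulus. Per kilobase, the highest were Rhob, a small GTPase gene, at 241 ± 55.2 CPM per kb and the growth-restraining gene Btg2 at 108 ± 17.1 CPM per kb. Jun stood at 258, 371, 313, 510.2 and 187 CPM in saline 1 to 5 and Junb at 187, 243, 202, 316 and 172 CPM, both highest in saline 4 and lowest in saline 5. Atf3 stood at 38.4, 17.02, 14.5, 13.7 and 17.9 CPM, highest in saline 1, and Fos at 1.01, 6.96, 5.19, 7.36 and 2.87 CPM, lowest in saline 1. The order of the mice thus differed from gene to gene. The lists of lysosomal genes, cathepsins and homeostatic genes had median CVs of 0.0720, 0.0735 and 0.0742, and of 0.0346, 0.0441 and 0.0545 without saline 1. Their median levels were 438, 735 and 2881 CPM. All genes at 100 to 1000 CPM had a median CV of 0.0762, and those above 1000 CPM one of 0.0698. Over the 5 mice these lists were thus about as even as other genes of their level. Without saline 1 the medians of all genes in the same bins were 0.0643 and 0.0472.

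**Figure D4:**
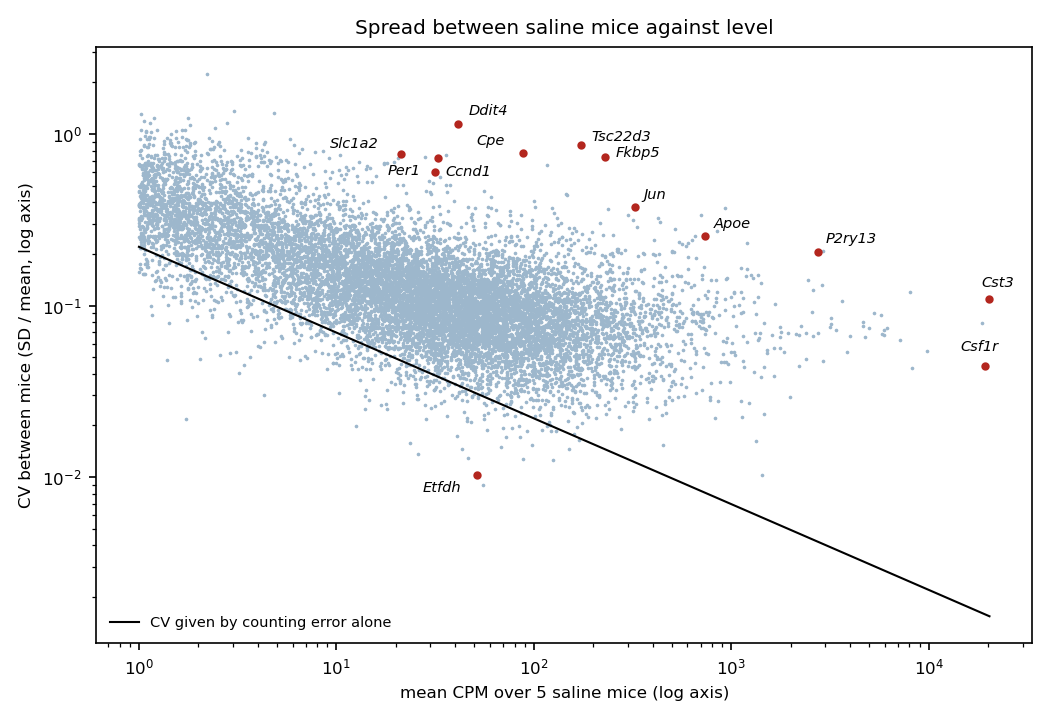
CV between the 5 saline mice (vertical log axis) against mean CPM (horizontal log axis) for every gene with a mean of 1 CPM or more, with the CV that counting error alone gives as a line and 13 genes marked. Most genes lie above the line, and Ddit4 at a CV of 1.15 and Etfdh at 0.0102 mark the uneven and the even end.

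At the even end, the genes with the smallest CV included Ywhaq, Etfdh, Jak3, Usp10, Rfk, Mtmr9, Rnf139, Btbd2 and Chd4. Ywhaq, which encodes a 14-3-3 adaptor protein, stood at 55.7, 55.8, 55.3, 56.4 and 55.1 CPM in saline 1 to 5, and Jak3, a cytokine receptor kinase gene, at 123, 127, 123, 125 and 124 CPM. The CV of Ywhaq was 0.00894 against 0.0295 from counting error, and that of Jak3 0.0126 against 0.0197. Both were thus below what counting error gives on average, as the smallest of many values can be, and their order carries no further meaning. Without saline 1 the smallest included those of Rpn2, Trmt2a, Atp2a2, Snapc5, Dip2b, Zfp276, Cstf1 and Csf1r. Csf1r had a CV of 0.0444 over 5 mice and of 0.00828 over saline 2 to 5, where it stood within 18854 to 19195 CPM.

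At the other end, 41 of the 8478 genes (0.484%) had a CV above 0.5. In 27 of the 41 the lowest mouse was saline 1 and in 25 the highest was saline 5, the libraries with the lowest and the highest sums of neuronal and astrocyte markers. Without saline 1, and with the scale set over the other 4, 17 genes at 10 CPM or more had a CV above 0.5. On the scale set over 5 libraries, leaving out saline 1 gave 18 such genes, and 15 of the 41 were still above 0.5. Of the 10 largest CVs, 5 belonged to genes known from neurons or astrocytes. Cpe, which encodes a peptide-processing enzyme, stood at 4.27, 86.1, 80.3, 74.6 and 194 CPM in saline 1 to 5. Slc1a2, the main glutamate transporter gene of astrocytes, stood at 0.506, 21.1, 22.6, 16.6 and 45.7 CPM. Aldoc, which encodes the brain form of aldolase, stood at 2.14, 33.9, 33.1, 32.1 and 78.5 CPM. The other 2 were the kinesin gene Kif1a at 1.07, 8.58, 15.3, 6.31 and 21.2 CPM and the astrocyte-rich gene Ndrg2 at 3.54, 27.3, 25.5, 23.9 and 60.8 CPM. All 5 had the same end mice, saline 1 lowest and saline 5 highest, and their CVs were 0.774, 0.761, 0.759, 0.750 and 0.730 with saline 1 and 0.525, 0.492, 0.512, 0.525 and 0.514 without it. The part of other cells in these levels was not tested. Slc1a2 and Aldoc are themselves among the 13 astrocyte markers.

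The uneven genes that did not follow those markers had another order of mice. Ddit4, which encodes an inhibitor of the growth kinase mTORC1, had the largest CV of all and stood at 9.50, 2.93, 122, 44.01 and 29.3 CPM in saline 1 to 5. Tsc22d3, which encodes the glucocorticoid-induced leucine zipper protein, stood at 56.5, 46.2, 411, 224 and 132 CPM. Fkbp5, which encodes a co-chaperone of the glucocorticoid receptor, stood at 90.6, 75.5, 389, 433 and 163 CPM and the clock gene Per1 at 12.8, 8.96, 67.4, 40.3 and 33.7 CPM. In all 4 genes saline 3 and 4 were the 2 highest mice, saline 5 was in the middle, and saline 1 and 2 were the 2 lowest. The ratio of the highest to the lowest mouse was 41.7 for Ddit4, 8.90 for Tsc22d3, 5.74 for Fkbp5 and 7.53 for Per1. Without saline 1 their CVs stayed at 1.03, 0.769, 0.653 and 0.639. All 4 are known, among other controls, as genes that glucocorticoids induce. Saline 3 and 4 also share a suffix of their library names that none of the other 3 carries. Its meaning is not stated in the labels, and what it marks and the mice themselves cannot be told apart. RNA integrity numbers were 9.2 and 9 in saline 1 and 2 and 9.8, 9.9 and 9.8 in saline 3 to 5. Their part in this order of mice was not tested. Saline 3 and 4 were 35 and 29 days old.

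Nr3c1, the glucocorticoid receptor gene, stood at 317, 301, 285, 264 and 296 CPM in saline 1 to 5. Sgk1, which encodes a kinase induced by glucocorticoids, stood at 709, 730, 984, 754 and 778 CPM, highest in saline 3 but with saline 4 among the other mice. Dusp1, an immediate early gene that glucocorticoids also induce, stood at 8.32, 11.8, 26.97, 24.5 and 8.19 CPM and had a CV of 0.570. The opposite order was seen for Rnf144b, a ubiquitin ligase gene, at 21.9, 45.6, 9.01, 11.3 and 14.6 CPM, and for Ccnd1 at 42.6, 59.7, 16.5, 17.4 and 21.3 CPM, which were highest in saline 2 and then in saline 1. Cd151, a tetraspanin gene, stood at 13.04, 29.5, 9.94, 9.08 and 8.94 CPM, with saline 2 above the other 4 mice. Without saline 1, Rnf144b, Ccnd1 and Cd151 had CVs of 0.851, 0.722 and 0.703, and were then among the 5 most uneven genes. Eps8l1, at 18.8, 19.5, 9.10, 13.9 and 3.29 CPM, and Abat, which encodes the GABA-degrading enzyme, at 0.843, 8.54, 8.03, 5.92 and 19.3 CPM, were also among the 10 most uneven genes of saline 2 to 5. Nr3c1 and Sgk1 are in none of the lists and were picked with their values known.

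**Figure D5:**
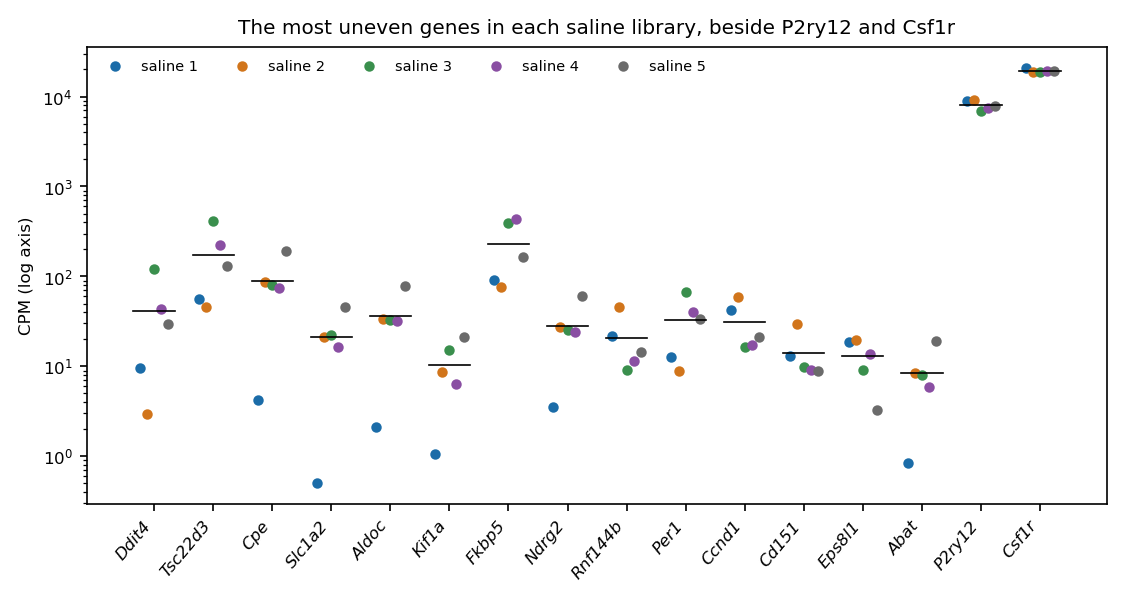
CPM (vertical log axis) in each of the 5 saline libraries of the 14 genes with the largest CV, with or without saline 1, beside P2ry12 and Csf1r; each point is a mouse and each bar the mean of 5. Saline 1 lies far below the rest for Cpe, Slc1a2, Aldoc, Kif1a, Ndrg2 and Abat, while saline 3 and 4 lie highest for Ddit4, Tsc22d3, Fkbp5 and Per1.

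Counted over all 8478 genes, saline 1 was more than 2-fold below the median of the other libraries for 48 genes and more than 2-fold above it for 9. The same numbers were 10 and 8 for saline 2, 7 and 13 for saline 3, 5 and 6 for saline 4, and 3 and 13 for saline 5. Even the library that stood apart therefore differed at this size in under 1% of the genes.

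The mice fell into an older pair, saline 1 and 3 at 36 and 35 days, and 3 younger mice, saline 2, 4 and 5 at 30, 29 and 30 days, and levels were compared between the 2 ages. The p-values measure the spread between these mice, sorting and library preparation included. No gene of 13393 tested passed an adjusted p of 0.05 (0%; edgeR quasi-likelihood test, Benjamini-Hochberg adjustment), and the smallest adjusted p was 1.00. At an unadjusted p under 0.05 there were 247 genes, 86 higher and 161 lower in the older mice, against the 670 of 13393 that make up 5% of the genes. DESeq2 called 1 gene, Afap1l1, and limma-voom 0. For 8311 of the 8478 genes at 10 CPM or more (98.0%), the 95% interval around the difference excluded changes of 2-fold or more in both directions, so that changes of that size were bounded for nearly all well-expressed genes. Counts were also simulated on these libraries, with changes set only in genes at 10 CPM or more. The same procedure recovered 94 of 100 genes changed 2-fold there. Each gene was drawn on its own, without a shift shared by many genes of a library. The recovery therefore does not measure the power of the real comparison.

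The genes named here by their p were all short of the threshold. Afap1l1, an actin-associated adaptor gene, stood at 82.1 and 72.2 CPM in the older mice and at 50.6, 48.3 and 50.4 CPM in the younger ones. Its log2 fold change was 0.63 ± 0.11 (SE, adjusted p = 1.00 by edgeR). The transcription factor gene Myc stood at 52.98 and 49.6 CPM against 36.5, 37.04 and 28.5 CPM, and Lrrc3 at 409 and 413 CPM against 315, 337 and 319 CPM. Both differences missed the threshold. Afap1l1, Myc and Lrrc3 were named for their small p in this same comparison, so the gap between the ages follows from that choice. Shroom4 had 23 and 12 counts in the older mice and 0 in the 3 younger ones.

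On the lower side, Wnk3, Rfx4 and Hapln1 had no count in either older mouse. In saline 2, 4 and 5, Wnk3 had 25, 25 and 11 counts, Rfx4 27, 8 and 24 counts and Hapln1 32, 11 and 10 counts. Mboat2 stood at 0.112 and 0.245 CPM against 1.21, 1.27 and 2.82 CPM. All 4 had means near 1 CPM or below, and saline 1, the library with the fewest neuronal and astrocyte transcripts, was one of the 2 older mice.

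The 4 microglial markers were bounded closely. The log2 fold change of older against younger mice had a 95% interval of -0.14 to 0.27 for Csf1r, -0.33 to 0.28 for P2ry12, -0.05 to 0.37 for Tmem119 and -0.14 to 0.30 for Cx3cr1. None of the 440 tested members of the 27 functional lists passed the threshold, and the median log2 fold change of a list ran from -0.21 for interferon genes, of which 17 of 22 were on the lower side, to 0.13 for complement. Over all tested genes the median size of the log2 fold change was 0.11. The astrocyte markers had a median of -1.43, with all 13 lower, and the neuronal markers a median of -0.86, with 10 of 11 lower. None of these markers passed the threshold either. In the summed markers, the older saline 3 lay within the range of the younger mice. Its sums were 210 CPM (neurons) and 109 CPM (astrocytes), against 166 to 303 and 94.0 to 240 CPM in the younger mice. Saline 1, the other older mouse, stood at 7.59 and 7.19 CPM.

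The comparison changed when saline 3 was left out, which left saline 1 as the only older mouse. Then 77 of 13983 genes passed (0.551%), 74 of them lower, and 9 of the 26 tested neuronal and astrocyte markers were among them. The lone older mouse is assumed to vary like the younger ones in that fit. Leaving out any other mouse gave 0 genes.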

How the data were processed

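The deposited values are counts per gene symbol. Per the submitters' processing notes, the authors used Trimmomatic 0.32, STAR 2.4.2a and HTSeq 0.6.1 with the genome GRCm38.p4; neither settings nor strand use are stated in the labels. Each column was assigned by its label, and the 5 saline libraries (18016777 to 28859244 counts) were analysed alone.

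Levels are CPM scaled by TMM over the 5 libraries (edgeR 4.0.16), and CPM per kb used exon-union lengths of GENCODE M21 on GRCm38. A gene was called expressed at 1 CPM or more in all 5 libraries. Spread is the CV between mice, for genes with a mean of 10 CPM or more. Ages (from 35 days against younger) were compared with edgeR's quasi-likelihood test after filterByExpr (minimum count 10, minimum total 15), with Benjamini-Hochberg adjustment at 0.05; DESeq2 1.42.0 and limma 3.58.1 were alternatives. The procedure was tested on simulated data of 13096 genes, each drawn on its own, with changes only in genes at 10 CPM or more. It recovered 94% of 2-fold and 99% of 4-fold changes there, with 14 false calls.

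The libraries, lists and rules were chosen with earlier results of these data known. The named genes were the 20 highest by CPM and by CPM per kb, members of the gene lists (the 6 highest per kilobase, those under 1 CPM in every library, and any member of a list of at most 25), the 10 largest and 10 smallest CVs with and without saline 1, and the 4 smallest p in each direction of the age test, with unnamed gene models passed over; some genes that the rule covers are not reported here. Gabbr2, Nr3c1, Sgk1 and the mitochondrial genes were chosen after their values were seen.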

Additional observations from a re-analysis of the deposited data

Results flagged for a closer look

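Of 211 genes named in the text and tested for a mouse that stood far from the other 4 (Dixon's criterion at the 95% level), 23 had one (10.9%), and in 18 of them it was saline 1. Over all expressed genes the share was 5.33% (577 genes), and in 203 of these the mouse apart was saline 1. Chance alone gives about 1 in 20. The named genes were partly chosen for their spread. The genes with the smallest CV without saline 1 were bound to meet it wherever saline 1 differed.

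In the following genes saline 1 stood above the other 4 mice. Csf1r stood at 20891 CPM there against 18854 to 19195 CPM in the others, Selplg at 6654 CPM, the integrin gene Itgb2 at 807 CPM and the lectin gene Siglece at 173 CPM. Unc93b1 stood at 2390.4 CPM, the interferon receptor gene Ifnar2 at 256 CPM and the enzyme gene Lpcat2 at 2178 CPM. Of the disease-associated list, Cd9 stood at 895 CPM, Cst7 at 15.9 CPM and Ctsz at 1743 CPM in saline 1. Atf3, an early response gene, stood at 38.4 CPM there against 13.7 to 17.9 CPM. The sums of neuronal and astrocyte markers were lowest in the same library, and their part in these levels was not tested.

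The genes chosen for their small CV in saline 2 to 5 stood in saline 1 at 617 CPM for Rpn2, 392 CPM for Atp2a2, 434 CPM for Dip2b and 60.2 CPM for Cstf1, above the other mice. Trmt2a at 146 CPM, Snapc5 at 19.8 CPM and Zfp276 at 67.0 CPM were below them.

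In saline 2, Cd151 stood above the other mice at 29.5 CPM, and Adora3 and Il6 below them at 49.7 CPM and 5.89 CPM. In saline 3, Adrb1 stood at 82.8 CPM against 39.0 to 47.5 CPM in the others, and Sgk1 at 984 CPM against 709 to 778 CPM. No named gene had saline 4 or 5 as the mouse apart.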

How the results depend on the processing

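The mean of a named gene was recomputed with RLE factors, plain library totals or TMM over all 9 libraries of the series. It was also recomputed with each library left out in turn. It moved by less than 1 SD in 2207 of 2208 cases, and Ywhaq moved by more without saline 1 (56.2 CPM). Leaving out 1 of 5 mice can barely move a mean by 1 SD, so those cases could hardly fail. Low means still rested on 1 mouse at times. Without saline 4, C3 fell from 0.982 to 0.507 CPM and Lyve1 from 0.396 to 0.163 CPM. Expressed symbols ranged over 10827 to 11615, and 10876 to 11109 with a library left out. With the longest transcript as length, 19 of the 20 highest genes per kilobase were kept. The number of genes with a CV above 0.5 was 41, and 17 to 40 with a library left out, lowest without saline 1; from a mean of 50 CPM it was 4. For age, the number past the threshold was 0, but 1 with DESeq2, 8 with no count filter (more low genes tested), 2 with the suffix of the library name as a covariate and 0 to 77 with a mouse left out, 77 without saline 3. Unadjusted p under 0.05 occurred 247 times, 755 with no filter, 115 with 5 CPM in at least 2 libraries and 159 to 1353 with a mouse left out. Limma-voom, RLE and age in days gave 0 past the threshold. With the suffix as a covariate, the age difference rested on saline 3 against saline 4. Saline 1 has a suffix of its own, and saline 2 and 5, which share another, are both younger. That fit thus compares 1 mouse of each age and cannot separate age from the mouse, so no conclusion is drawn from its count. Afap1l1 passed with DESeq2 (adjusted p = 0.00857), no filter (0.0245) and without saline 3 (0.0398); Shroom4, Wnk3 and Rfx4 passed only with no filter. None of the results recomputed changed direction. The cause of these moves was not tested. No paired analysis was possible because only the saline libraries are used, and each replicate number occurs once among them.

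Depth limits single libraries to levels above 0.103 to 0.169 CPM, and the age test has 2 mice against 3, whose litters are not stated. Genes with close copies or overlapping exons (38.5% of the expressed genes) may have received counts of a neighbour, or lost them.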
